A study of Homo sapiens with 18 samples.

Results

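The BCL2 family of apoptosis regulators was examined in LNCaP, an androgen-responsive human line derived from prostate cancer. The members were chosen by name and role, with earlier results of these data known. They are 4 antiapoptotic genes (BCL2, BCL2L1, MCL1 and BCL2A1), 2 effectors (BAX and BAK1) and 4 genes of the BH3-only class (BID, BIK, BCL2L11 and PMAIP1), 10 of the 28100 genes in the table. Polyadenylated RNA was sequenced from 18 libraries in 6 groups of 3, taken after 48 h. The 3 kinds of conditioned medium came from macrophages derived from the monocytic leukaemia line THP-1: unpolarised (M0), proinflammatory (M1) and immunosuppressive (M2). A further pair of groups received M1 medium with the NF-kB pathway inhibitor IKK16 at 0.7 μmol/l (M1-IKK) or with an equal amount of its solvent (M1-DMSO). The control group (CTRL) received RPMI medium with 10% heat-inactivated serum, the same medium that diluted the conditioned media, and no DMSO. The cells are labelled wild type, and every group is 1 cell line grown without the macrophages themselves. The comparisons address how RNA of the family differs between conditioned and control media, and between M1 medium with IKK16 and with DMSO. Which part of a conditioned medium acts, and how far IKK16 inhibited NF-kB signalling, was not tested.

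BCL2 family proteins govern the mitochondrial route of apoptosis. BAX and BAK1 open pores in the outer mitochondrial membrane, through which cytochrome c escapes and starts the caspases. Antiapoptotic members bind and restrain these effectors, and BH3-only proteins either occupy the antiapoptotic members or activate the effectors directly. In prostate cancer the family is known for raised BCL2 protein in tumours that have escaped androgen control.

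Promoter sequence is shown for 2 members, PMAIP1 and BCL2L1, because they carry the largest rise in M1 medium and the largest fall with IKK16. Both were picked after their values were seen. Each line gives the 250 bases before a RefSeq start (assembly GRCh38.p14), 5′ to 3′ on the gene's own strand. PMAIP1 lies on the plus strand at chr18:59899746-59899995, with matches to a wide NF-kB-like pattern on either strand (GGG and CC with 5 bases of any kind between them) in capitals. BCL2L1 lies on the minus strand at chr20:31723964-31724213, with TATAAA in capitals. BCL2L1 has 2 promoter windows, of which the most upstream is printed, and TATAAA lies only in that one.
PMAIP1: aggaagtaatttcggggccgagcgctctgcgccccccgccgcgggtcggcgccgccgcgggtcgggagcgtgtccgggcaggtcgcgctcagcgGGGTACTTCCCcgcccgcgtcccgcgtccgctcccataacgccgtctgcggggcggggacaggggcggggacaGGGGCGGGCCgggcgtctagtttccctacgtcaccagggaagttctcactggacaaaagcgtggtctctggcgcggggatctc
BCL2L1: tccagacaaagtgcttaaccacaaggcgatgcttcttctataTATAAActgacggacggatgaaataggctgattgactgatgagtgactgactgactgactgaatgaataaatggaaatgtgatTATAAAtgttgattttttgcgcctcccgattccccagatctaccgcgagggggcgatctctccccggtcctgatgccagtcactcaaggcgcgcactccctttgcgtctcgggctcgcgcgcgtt
In PMAIP1 the first capital run holds 2 overlapping matches. RefSeq promoter windows of 300 bases were matched for 8 members (all but MCL1 and BIK). The wide pattern lies in windows of 5 of those 8 members, against 61.7% of all 27305 genes. The stricter NF-kB consensus lies in 0 of the members' 13 windows and in 5.91% of all 35116 windows. TATAAA lies in 2 of the 13 windows, 1 of BCL2L1 and 1 of BCL2A1, against 11.5% of all windows. These are letter matches in short windows and say nothing of binding.

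Levels are given in CPM (counts scaled to library size), scaled by edgeR's TMM factors, as mean ± SD over 3 libraries. Gene counts summed to 24202742.5 to 33814819 per library, and 17037 genes, 9 of the 10 members among them, passed the filter on low counts. BCL2A1, an antiapoptotic gene best known in blood cells, had 0 counts in all 18 libraries, which allows a level of up to 0.0897 to 0.126 CPM depending on the library. "Rose" and "fell" below mean a Benjamini-Hochberg adjusted p under 0.05 in edgeR's quasi-likelihood test over all 17037 genes, two-sided. The transcripts of MCL1 held 99.93 to 100% of the counts of its highest transcript and those of BCL2L1 89.53 to 100%, so splice forms of opposite action, such as BCL-XL and BCL-XS of BCL2L1, were not told apart. Counts may include intronic reads, since most transcripts with the same ends had identical counts. In bulk RNA, fewer cells of a type and less RNA per cell cannot be told apart either.

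All 10 LNCaP markers fixed for the check were detected in every group. Their summed level was 3198 to 3279 CPM in M1 against 8927 to 9200 CPM in CTRL, with 3 of them higher and 6 lower. It was 3946 to 3984 CPM in M1-IKK against 3335 to 3381 CPM in M1-DMSO. Of 14 macrophage markers, 7 were too low to test, and TYROBP was at 0 in all 18 libraries. The list summed to 247.4 to 266.6 CPM in M1 and 230.0 to 234.2 CPM in CTRL, mostly CSF1R at 196 CPM in M1 and 224 CPM in CTRL. In M1 4 of the list rose and 3 fell. ITGAM stood at 19.96 CPM in M1 against 0.149 CPM in CTRL, and CD68 at 36.9 CPM against 4.93 CPM. PTPRC, the pan-leukocyte marker, was at 0 in the 3 M1 libraries. In M1-IKK over M1-DMSO 4 of the 7 tested macrophage markers fell and 1 rose. ITGAM stood at 10.2 CPM in M1-IKK against 19.2 CPM in M1-DMSO, LYZ at 0.815 CPM against 2.07 CPM and CD68 at 25.1 CPM against 30.7 CPM. What these marker differences contribute to the results below was not tested.

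Per kilobase of the gene's longest spliced transcript, MCL1, BAX and BCL2L1 had the highest levels in every group and BCL2 the lowest of those detected. Counts may include introns, and the spans of these genes run from 4310 bases (PMAIP1) to 196745 bases (BCL2). The order is therefore only a rough guide to abundance between genes. In M1 the order was MCL1 (89.4 CPM per kb), BAX (51.6), BCL2L1 (46.2), BIK (33.5), PMAIP1 (25.4), BID (15.8), BAK1 (15.3), BCL2L11 (5.83) and BCL2 (0.370). Only the neighbours BID and BAK1 overlapped there. In CTRL the order began with MCL1 (45.6 CPM per kb), BAX (43.2) and BCL2L1 (37.2), each overlapping the next. BIK (16.4), PMAIP1 (9.86), BAK1 (9.08), BID (7.61), BCL2L11 (6.12) and BCL2 (0.615) followed, and of these PMAIP1 and BAK1 overlapped.

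**Figure D1:**
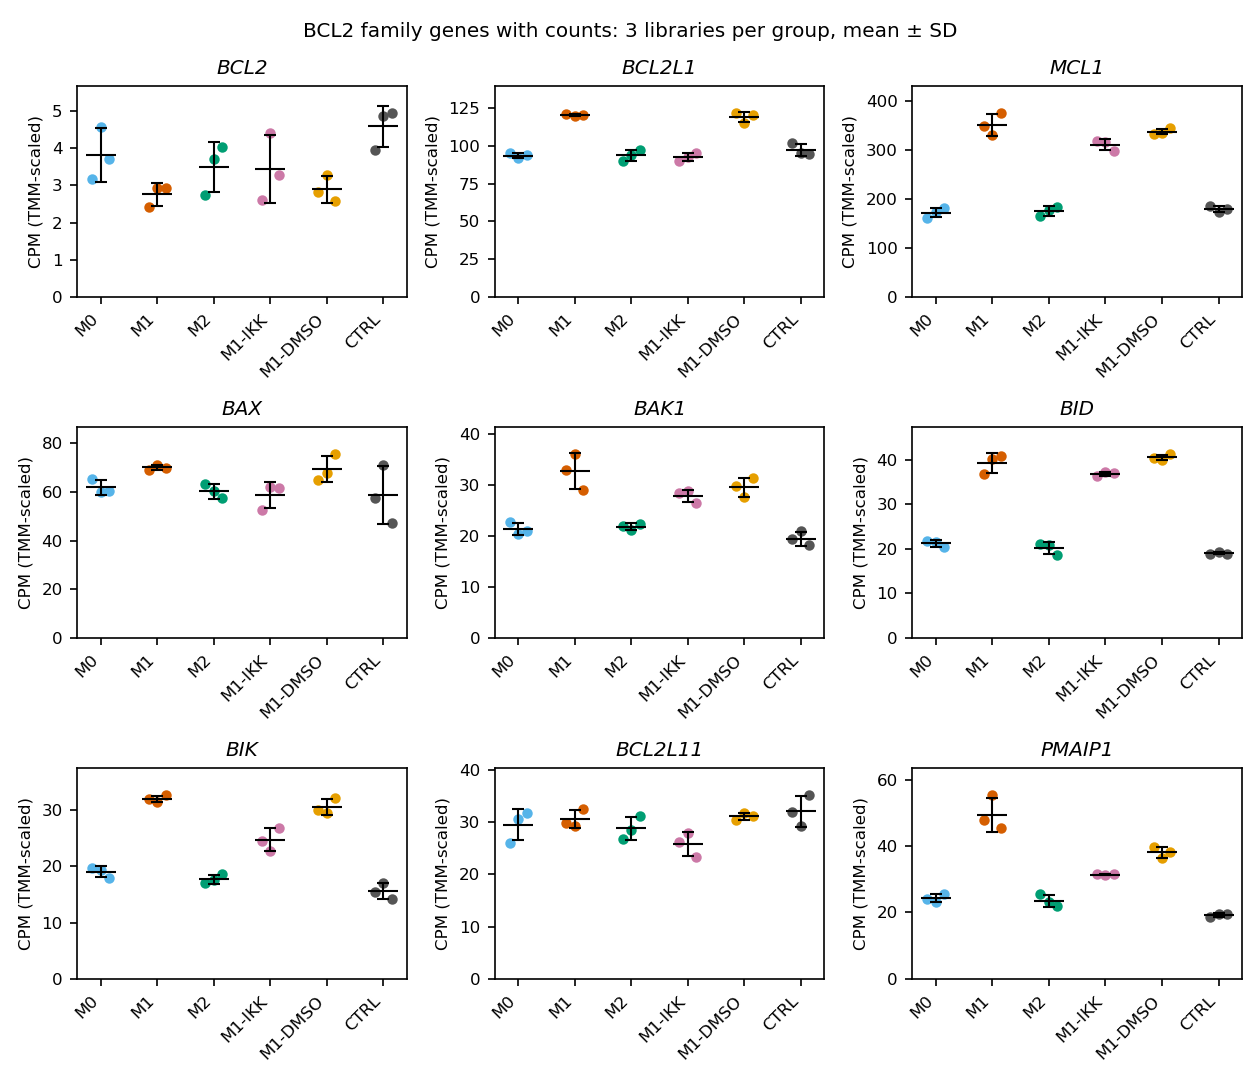
Level of each detected member in CPM (vertical axes, from 0) in every library of the 6 groups, with bars for mean ± SD (n = 3). The M1, M1-IKK and M1-DMSO libraries of MCL1, BAK1, BID, BIK and PMAIP1 all sit above the CTRL libraries, for MCL1 between 298 and 375 CPM against 172 to 186 CPM.

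M1 medium was followed by higher RNA of 7 of the 9 tested members and lower RNA of 1, BCL2, relative to control medium. The largest rises were in PMAIP1 (2.58-fold), BID (2.07-fold), BIK (2.05-fold) and MCL1 (1.96-fold), and only BCL2L11 did not pass the test. Rises thus stood on both sides of the family, in 2 antiapoptotic genes, both effectors and 3 BH3-only genes. Across all tested genes 64.8% were called in this comparison, 32.9% higher and 31.9% lower. The members' median log2 fold change was 0.75, against -0.0011 over all genes, and 7 of 9 members had groups that did not overlap, against 66.2% of all genes.

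**Figure D2:**
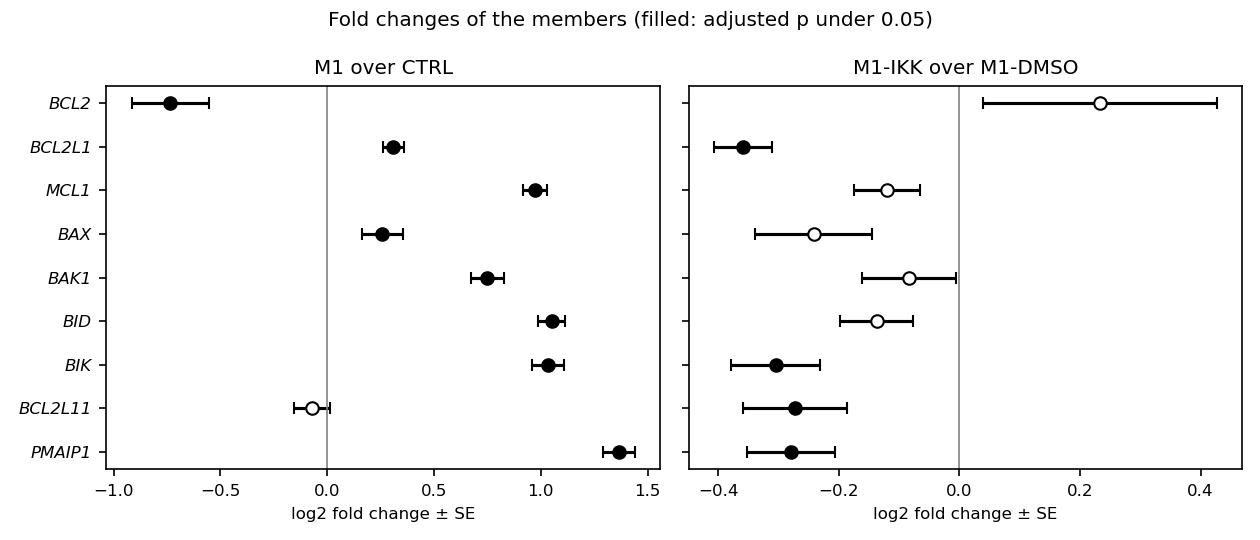
Log2 fold change ± SE (edgeR, 3 libraries per group) of the 9 tested members in M1 over CTRL (left) and M1-IKK over M1-DMSO (right), filled where the adjusted p is under 0.05. On the left 7 filled points lie right of 0 and BCL2 lies left of it; on the right 4 filled points lie left of 0. The 2 horizontal scales differ.

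Among the antiapoptotic genes, MCL1 encodes a short-lived protein that restrains BAK1 and binds most BH3-only proteins. Its gene lies on chromosome 1 at 150574558 to 150579610 (assembly GRCh38.p14). MCL1 stood at 350, 330 and 375 CPM in M1 against 186, 172 and 180 CPM in CTRL. The groups lay far apart, with a log2 fold change of 0.97 ± 0.06 (SE; edgeR adjusted p = 2.73e-13). BCL2L1, whose main product is BCL-XL, had 121, 120 and 121 CPM in M1, against 102, 95.3 and 94.5 CPM in CTRL. Its rise was smaller, at 0.31 ± 0.05 (edgeR adjusted p = 5.05e-06). The BCL2L1 span of 59512 bases overlaps LOC124904883 and BCL2L1-AS1, whose share of its counts was not tested. BCL2, the founding member, went the other way.

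BCL2 had 2.41, 2.93 and 2.94 CPM in M1 against 3.96, 4.87 and 4.94 CPM in CTRL. All M1 libraries lay below all CTRL libraries, and the fall was 0.74 ± 0.18 on the log2 scale (1.66-fold; edgeR adjusted p = 0.00114). The BCL2 span of 196745 bases overlaps the gene LOC124904379, and the share of its counts from introns or from that gene was not tested. A shorter BCL2 transcript with 29.4% of the counts fell in the same direction, with a log2 ratio of -0.96, against -0.78 for the transcript used.

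The effector BAK1 had 33.0, 35.9 and 28.9 CPM in M1 and 19.3, 20.8 and 18.1 CPM in CTRL. It rose by 0.75 ± 0.08 (edgeR adjusted p = 1.53e-08), with no overlap; how the counting treated its processed copy BAK1P1 is not given in the sources used here. BAX had 69.2, 71.2 and 69.8 CPM in M1 and 57.7, 71.0 and 47.4 CPM in CTRL, so 1 CTRL library lay within the M1 range. BAX rose by 0.26 ± 0.10 (edgeR adjusted p = 0.023), the weakest call. Without M1 replicate 2, CTRL replicate 1 or CTRL replicate 3 the edgeR adjusted p of BAX was 0.056, 0.0621 or 0.2, and without CTRL replicate 3 its log2 fold change was 0.13.

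Of the BH3-only genes, PMAIP1 encodes NOXA, which binds chiefly MCL1. PMAIP1 had 47.9, 55.3 and 45.3 CPM in M1 against 18.6, 19.6 and 19.4 CPM in CTRL. This was the largest change of a member, 1.37 ± 0.07 (edgeR adjusted p = 1.1e-13), above 92.7% of all tested genes. BID is cut by caspase-8 and so links the death receptors to mitochondria. BID had 36.8, 40.2 and 41.0 CPM in M1 against 18.9, 19.2 and 18.8 CPM in CTRL, a rise of 1.05 ± 0.06 (edgeR adjusted p = 6.48e-13). BIK, which acts largely at the endoplasmic reticulum, had 31.9, 31.4 and 32.6 CPM in M1 against 15.5, 17.1 and 14.3 CPM in CTRL. BIK rose by 1.04 ± 0.08 (edgeR adjusted p = 2.48e-11), and neither gene's groups overlapped.

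BCL2L11 encodes BIM, an activator of BAX and BAK1. It had 29.8, 29.3 and 32.5 CPM in M1 and 31.8, 29.1 and 35.1 CPM in CTRL, and the groups overlapped. Its log2 fold change was -0.07 ± 0.08 (edgeR adjusted p = 0.469), with a 95% interval of -0.23 to 0.09.

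M0 and M2 media gave far smaller differences. With M0 medium 2 of the 9 members rose (11.7% of all genes called, 6.67% higher and 5.05% lower): PMAIP1 by 0.34 ± 0.08 (edgeR adjusted p = 0.0133) and BIK by 0.28 ± 0.08 (edgeR adjusted p = 0.0249). PMAIP1 had 24.1, 23.0 and 25.5 CPM in M0 and 25.6, 23.0 and 21.8 CPM in M2, all above the 18.6 to 19.6 CPM of CTRL. With M2 medium PMAIP1 alone passed (8.77% of all genes called, 5.28% higher and 3.49% lower), at 0.29 ± 0.08 (edgeR adjusted p = 0.0223). These small calls rested on single libraries, as did the background: 1996 genes were called in M0 over CTRL and 30 without CTRL replicate 1. In M0, PMAIP1 had an edgeR adjusted p of 0.0664 without M0 replicate 1 and 0.0795 without CTRL replicate 1. BIK no longer passed without M0 replicate 1 or CTRL replicate 1 or 3, where its highest edgeR adjusted p was 0.121. In M2, PMAIP1 no longer passed without M2 replicate 1, M2 replicate 2 or CTRL replicate 1, with an edgeR adjusted p of up to 0.191.

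M1 medium was also set against the other conditioned media. M1 over M0 gave 6 higher members (MCL1, BCL2L1, BAK1, BID, BIK and PMAIP1) and 1 lower (BCL2), with 67.2% of all genes called, 34.2% higher and 33.0% lower. MCL1 had 350, 330 and 375 CPM in M1 against 161, 174 and 181 CPM in M0. BCL2 fell by 0.47 (edgeR adjusted p = 0.0304), and without M0 replicate 2 or M1 replicate 1 its edgeR adjusted p was 0.162 or 0.109. M1 over M2 gave the same 6 higher members and none lower, with 67.5% of all genes called, 34.3% higher and 33.2% lower. BAX in M1 over M2 stood at 0.22 (edgeR adjusted p = 0.0524) and passed by DESeq2 (adjusted p = 0.0459), in 3 other settings and without M2 replicate 1. BCL2 in M1 over M2 stood at -0.33 (edgeR adjusted p = 0.123) and passed with the length trend removed (edgeR adjusted p = 0.0281) and without M2 replicate 1 (edgeR adjusted p = 0.0344). M2 over M0 gave 0 of 9 members by edgeR, 0 at an unadjusted p under 0.05 and 0 by DESeq2, with 0.106% of all genes called. M1 is shared by the first 2 of these comparisons, and CTRL by those above.

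With IKK16 in M1 medium, 4 of the 9 members were lower than in M1 medium with DMSO and none was higher. They were the antiapoptotic BCL2L1 and the BH3-only genes BIK, PMAIP1 and BCL2L11, with falls between 0.27 and 0.36 on the log2 scale. MCL1, BAX, BAK1 and BID had estimates below 0 and BCL2 one above 0, and none of these passed. Across all genes 27.3% were called, 14.4% higher and 12.9% lower. The members' median log2 fold change was -0.24, against 0.0057 over all genes, and 7 of 9 members did not overlap, against 44.5% of all genes.

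BCL2L1 had 90.3, 92.8 and 95.2 CPM in M1-IKK against 122, 115 and 120 CPM in M1-DMSO. The groups lay well apart, and BCL2L1 fell by 0.36 ± 0.05 (1.28-fold; edgeR adjusted p = 5.1e-06). MCL1 had 318, 317 and 298 CPM in M1-IKK and 333, 336 and 344 CPM in M1-DMSO. Its groups did not overlap, but its difference of -0.12 ± 0.05 missed the threshold (edgeR adjusted p = 0.111; 95% interval -0.23 to -0.01). BCL2 had 2.62, 4.42 and 3.27 CPM in M1-IKK and 2.82, 3.29 and 2.58 CPM in M1-DMSO, overlapping groups with a difference of 0.23 ± 0.19 (edgeR adjusted p = 0.409). The BCL2 difference was 0.02 without M1-IKK replicate 2, 0.39 without M1-IKK replicate 1 and 0.15 without M1-DMSO replicate 3.

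For the effectors, BAX had 52.7, 61.9 and 61.7 CPM in M1-IKK against 65.1, 67.9 and 75.4 CPM in M1-DMSO. The difference was -0.24 ± 0.10 (edgeR adjusted p = 0.0692), without overlap between the groups. BAX passed by DESeq2 (adjusted p = 0.0456) and in 3 other settings, 1 of which, the fit of the 2 groups alone, also called MCL1 lower (edgeR adjusted p = 0.0172). BAK1 had 28.3, 28.7 and 26.4 CPM in M1-IKK and 29.7, 27.6 and 31.2 CPM in M1-DMSO, which overlapped (-0.08 ± 0.08; edgeR adjusted p = 0.468).

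BIK had 24.5, 22.7 and 26.9 CPM in M1-IKK against 30.0, 29.4 and 32.2 CPM in M1-DMSO, a fall of 0.31 ± 0.07 (edgeR adjusted p = 0.00341). PMAIP1 had 31.5, 31.2 and 31.4 CPM in M1-IKK against 39.8, 36.5 and 38.1 CPM in M1-DMSO, a fall of 0.28 ± 0.07 (edgeR adjusted p = 0.00632). Every IKK16 library lay below every DMSO library for both genes. BCL2L11 had 26.1, 27.8 and 23.3 CPM in M1-IKK against 30.5, 31.6 and 31.1 CPM in M1-DMSO, a fall of 0.27 ± 0.09 (edgeR adjusted p = 0.021). Without M1-IKK replicate 3 or M1-DMSO replicate 2 the edgeR adjusted p of BCL2L11 was 0.105 or 0.0612. BID had 36.3, 37.2 and 37.1 CPM in M1-IKK and 40.5, 40.0 and 41.2 CPM in M1-DMSO, groups that did not overlap, with a difference of -0.14 ± 0.06 (edgeR adjusted p = 0.1).

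DMSO itself was tested as M1-DMSO over M1, where 4.25% of all genes were called, 2.22% higher and 2.03% lower. PMAIP1 alone among the members passed, falling by 0.38 ± 0.07 (edgeR adjusted p = 0.00583) to 39.8, 36.5 and 38.1 CPM in M1-DMSO, against 47.9, 55.3 and 45.3 CPM in M1. Without M1 replicate 2 the difference was -0.29 (edgeR adjusted p = 0.071). The labels do not say whether the inhibitor groups were run alongside the others.

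Cells in M1 medium with IKK16 were also set against CTRL, which had no DMSO. There 5 members were higher (MCL1, BAK1, BID, BIK and PMAIP1) and 1 lower (BCL2L11), with 52.5% of all genes called, 27.1% higher and 25.4% lower. MCL1 stood 0.79 ± 0.06 above CTRL (edgeR adjusted p = 2.43e-11), at 318, 317 and 298 CPM in M1-IKK against 186, 172 and 180 CPM in CTRL. BID (0.96 ± 0.06), PMAIP1 (0.71 ± 0.08), BIK (0.66 ± 0.08) and BAK1 (0.52 ± 0.08) also remained above CTRL, with edgeR adjusted p of 8.27e-06 or lower. BCL2L1 differed from CTRL by -0.07 ± 0.05 (edgeR adjusted p = 0.25; 95% interval -0.16 to 0.03). BCL2L11 fell by 0.32 ± 0.09 (edgeR adjusted p = 0.00337). BCL2 differed by -0.42 ± 0.18 (edgeR adjusted p = 0.0551), and 4.42 CPM in M1-IKK replicate 2 lay within the CTRL range; without that library its edgeR adjusted p was 0.00914.

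The balance of BCL2L1 to MCL1 within a library differed between M1 and CTRL. Per kilobase, BCL2L1 over MCL1 was 0.485, 0.522 and 0.546 in M1 and 0.792, 0.826 and 0.833 in CTRL, from lowest to highest. It was 0.428, 0.441 and 0.482 in M1-IKK and 0.518, 0.526 and 0.549 in M1-DMSO. PMAIP1 over MCL1 was 0.244, 0.276 and 0.338 in M1 and 0.202, 0.218 and 0.229 in CTRL. It was 0.198, 0.200 and 0.213 in M1-IKK and 0.219, 0.224 and 0.241 in M1-DMSO. Neither M1 with CTRL nor M1-IKK with M1-DMSO overlapped for either ratio. For PMAIP1 over MCL1, M0 ranged from 0.267 to 0.302 and M2 from 0.240 to 0.313, both overlapping M1 and above CTRL. M1-DMSO, at 0.219 to 0.241, overlapped CTRL in that ratio. These are RNA ratios between genes of different length, scaled by spliced length although counts may include introns. Whether genes differ in their response to IKK16 was not tested.

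**Figure D3:**
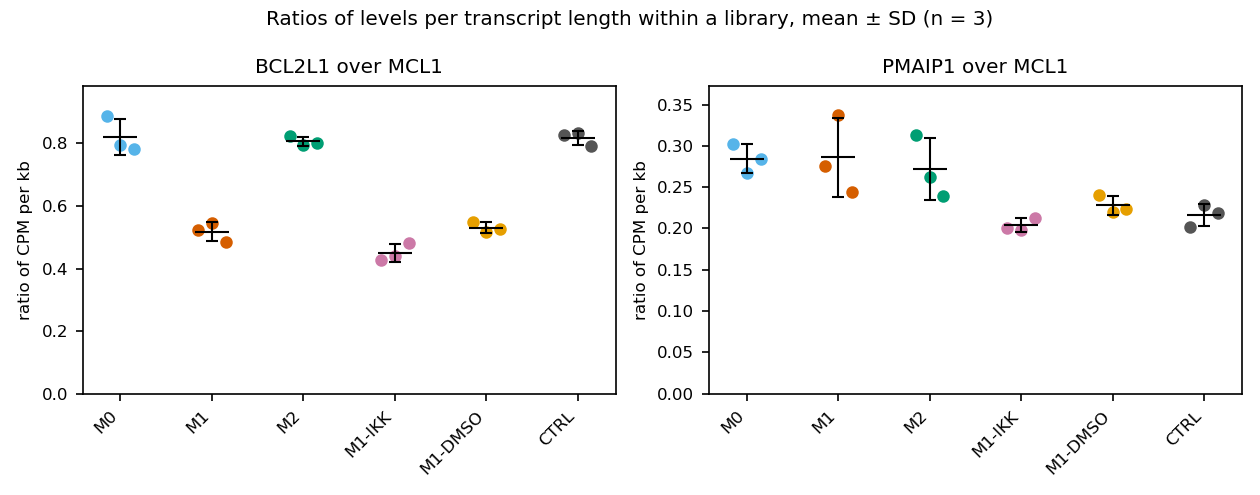
Ratio of CPM per kb of longest spliced transcript within each library, with bars for mean ± SD (n = 3). BCL2L1 over MCL1 (left) and PMAIP1 over MCL1 (right) are shown in the 6 groups. On the left every M1, M1-IKK and M1-DMSO library lies at or below 0.549 and every M0, M2 and CTRL library at or above 0.782.

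By likeness over the 18 libraries, which share the group structure, the genes closest to PMAIP1 by Pearson correlation of log2 CPM were TFPI (r = 0.988), CD59 (r = 0.986) and SEC11C (r = 0.985). Those closest to BCL2 were NIPAL4-DT (r = 0.849), GSE1 (r = 0.843) and STARD9 (r = 0.841).

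The related lists below were also chosen with earlier results of these data known. They are read against all tested genes. Of those genes, 64.8% were called in M1 over CTRL (32.9% higher, 31.9% lower) and 27.3% in M1-IKK over M1-DMSO (14.4% higher, 12.9% lower). Of the 9 other BCL2 family genes tested, 6 rose and 2 fell in M1 over CTRL (median log2 fold change 0.83). BMF, a BH3-only gene, averaged 59.0 CPM in M1 and 12.1 CPM in CTRL, a rise of 2.29 ± 0.08 (edgeR adjusted p = 1.27e-17). BBC3, which encodes PUMA, averaged 52.9 CPM in M1 and 16.998 CPM in CTRL (1.64 ± 0.10). BCL2L14 rose at a low level, 0.805 CPM in M1 and 0.288 CPM in CTRL. BCL2L12 fell by 0.65 ± 0.08, and BAD, a BH3-only gene, by 0.21 ± 0.09 (edgeR adjusted p = 0.0469). With IKK16, 3 of the 9 fell and none rose, a share near the 27.3% of all genes. BMF averaged 20.6 CPM in M1-IKK and 47.1 CPM in M1-DMSO, a fall of 1.19 ± 0.07 (edgeR adjusted p = 3.4e-11). BMF also fell in M1-DMSO over M1, by 0.33 ± 0.07 (edgeR adjusted p = 0.0119). BBC3 fell by 0.77 ± 0.10 and BOK, an effector-like gene named after its values were seen, by 0.31 ± 0.08. BCL2L10 and BCL2L15 were too low to test.

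The death receptor route feeds BID through caspase-8. All 10 of its listed genes rose in M1 over CTRL (median 0.80), where 32.9% of all genes rose. The list was not divided into genes that promote and genes that restrain the route, and its activity was not tested. CASP10 averaged 62.7 CPM in M1 and 3.00 CPM in CTRL, CASP8 71.6 CPM in M1 and 23.3 CPM in CTRL, and the receptor FAS 20.9 CPM in M1 and 7.79 CPM in CTRL. With IKK16, 6 of the 10 fell and none rose, including CASP10 (28.8 CPM in M1-IKK, 50.9 CPM in M1-DMSO) and the receptor TNFRSF1A (144 CPM in M1-IKK, 185 CPM in M1-DMSO).

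Of 11 genes of the apoptosome and mitochondrial release, 4 rose and 3 fell in M1 over CTRL (median 0.05), a share called near the 64.8% of all genes. DIABLO, an antagonist of inhibitor of apoptosis proteins, rose by 0.39 ± 0.06. ENDOG (-0.53 ± 0.09), VDAC1 (-0.36 ± 0.05) and AIFM1 (-0.13 ± 0.06) fell. With IKK16, VDAC1 rose by 0.37 ± 0.05 and CYCS, the cytochrome c gene, by 0.23 ± 0.06.

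Inhibitor of apoptosis proteins block caspases or their activation. Of 6 tested genes 4 rose and 1 fell in M1 over CTRL (median 0.57). BIRC3, a known NF-kB target, averaged 357 CPM in M1 and 4.76 CPM in CTRL, a rise of 6.23 ± 0.07 (edgeR adjusted p = 5.66e-26). XIAP (0.66 ± 0.06) and BIRC2 (0.61 ± 0.06) also rose. BIRC5, which encodes the cell-cycle-linked survivin, averaged 39.2 CPM in M1 and 157 CPM in CTRL. With IKK16, 3 of the 6 rose and none fell. BIRC3 averaged 374 CPM in M1-IKK and 297 CPM in M1-DMSO (0.33 ± 0.05; edgeR adjusted p = 5.28e-05), and BIRC5 85.3 CPM in M1-IKK and 46.9 CPM in M1-DMSO. The third was BIRC2 (0.17 ± 0.06; edgeR adjusted p = 0.0493), named after its values were seen. In M1-DMSO over M1, 3 of the 6 fell, among them BIRC3 by 0.26 ± 0.05 (edgeR adjusted p = 0.00862), to 297 CPM in M1-DMSO against 357 CPM in M1, and BIRC2 by 0.27 ± 0.06 (edgeR adjusted p = 0.0203), to 48.3 CPM against 58.2 CPM. BIRC7 was too low to test.

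Of 10 tested transcription factors that act on the family, 8 rose and 2 fell in M1 over CTRL (median 0.55). NFKB1, an NF-kB subunit, averaged 411 CPM in M1 and 62.9 CPM in CTRL. Its relative REL rose by 1.52 ± 0.10 and STAT3 by 1.52 ± 0.05. E2F1 fell by 2.15 ± 0.08 and TP73 by 0.38 ± 0.11. With IKK16, 4 fell and 1 rose. NFKB1 averaged 289 CPM in M1-IKK and 396 CPM in M1-DMSO, STAT3 464 CPM in M1-IKK and 652 CPM in M1-DMSO, and E2F1, the gene that rose, 42.3 CPM in M1-IKK and 28.5 CPM in M1-DMSO. TP63 was too low to test.

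**Figure D4:**
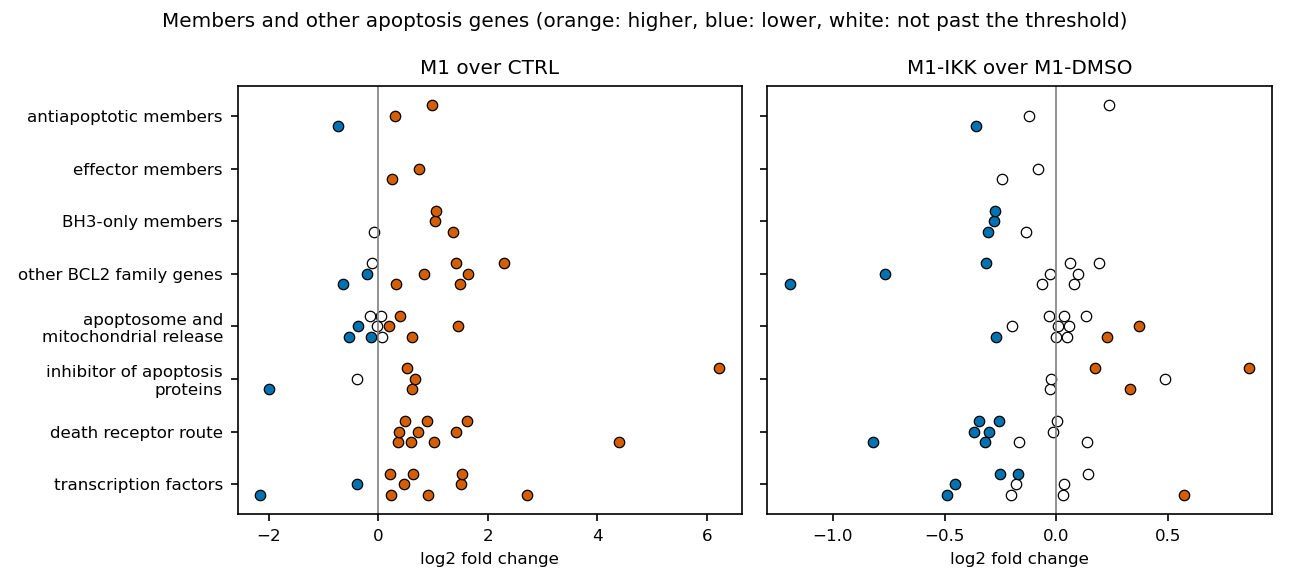
Log2 fold change (horizontal axes, scales differ) of each tested gene of the family and of the 5 related lists in M1 over CTRL (left) and M1-IKK over M1-DMSO (right), orange for higher, blue for lower and white where the adjusted p was 0.05 or more. All 10 death receptor genes lie right of 0 on the left, and BIRC3 lies farthest right at 6.23.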

How the data were processed

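Polyadenylated RNA from 18 LNCaP libraries was measured. The authors deposited expected counts per RefSeq transcript, in multiples of 0.5 and not normalised. The submitters' processing notes name hg38, Trimmomatic, BWA 0.7.17 and HOMER 4.10; what each did is not stated there, and the use of strand and handling of multiply matching reads is likewise not given in the sources used here. Of 1124 transcript pairs with the same ends and different spliced lengths, 893 (79.4%) had identical counts in every library and the rest did not, so most counts appear to cover the whole span, introns included. Of 70507 transcripts, 69830 were named from an NCBI table (GRCh38.p14) and 343 from GENCODE 29; the 334 unnamed ones, 0.0883 to 0.109% of counts, stayed out.

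Each gene was represented by its transcript of highest total count, rounded. Groups and replicates follow the labels, which do not say whether replicates are separate cultures, so p-values measure a spread that may be technical. Replicates differed by more than sampling noise (chi-square per gene 2.71 to 21.6). Tests used edgeR 4.0.16 (R 4.3.3) on all libraries with TMM scaling and filterByExpr; the common coefficient of variation was 0.0627. SE is the absolute log2 fold change over the square root of F, and 95% intervals are normal. Likeness used a prior count of 2. Floors are 3 counts per library and cover counting error only.

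The members and lists were chosen with earlier results of these data known. All members are named. From each related list up to 3 genes per direction were named for M1 over CTRL and up to 2 for IKK16, by size of change, with genes too low to test; likeness named 3 genes for the largest rise and fall. Some genes this rule would name are not reported here. Alternatives were DESeq2 1.42.0, its scaling in edgeR, no filter, a filter of 1 CPM in 3 libraries, a replicate block, the longest transcript, a length trend removed, the 2 groups alone and each library left out. On simulated data for M1 over CTRL (16369 genes), 59 of 67 genes changed 1.5-fold and 65 of 67 changed 2-fold were recovered. There were 7 false calls. Far fewer genes were changed there than the 64.8% called in the data, so recovery at such a share was not tested.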

Additional observations from a re-analysis of the deposited data

How the results depend on the processing

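Of 81 member values, 45 passed the threshold under some setting or belonged to the 2 leading comparisons, and DESeq2, median-of-ratios scaling, the 1 CPM filter and the longest transcript lost none of their calls. With 2 groups alone 1 member was called in M0 over CTRL and 0 in M2 over CTRL; with the length trend removed 1 was called in M0 over CTRL. Leaving out 1 library gave 7 to 8 members in M1 over CTRL, 0 to 2 in M0 over CTRL, 0 to 1 in M2 over CTRL, 0 to 1 in M1-DMSO over M1, 3 to 4 in M1-IKK over M1-DMSO, 6 to 7 in M1-IKK over CTRL, 6 to 7 in M1 over M0 and 6 to 8 in M1 over M2. BCL2L11 in M1 over CTRL ranged from -0.13 to 0.0043, above 0 without CTRL replicate 3; it passed in no setting. The cause of these shifts was not tested, and at a few CPM depth limits BCL2.

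No pairing by replicate number was detected. Deviations of same-numbered libraries correlated at -0.149 to 0.152, and 6 of 18 libraries were closest to their own number. Whether same-numbered libraries were prepared together is not given by the labels and was not tested. With the replicate block 8 members were called in M1 over CTRL and 4 in M1-IKK over M1-DMSO, as without it, and BCL2 in M1-IKK over CTRL had -0.43 (edgeR adjusted p = 0.013).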
